A study of Mus musculus with 31 samples.

Results

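The adrenergic receptors and cyclic AMP regulators described here are 8 genes of the pathway through which sympathetic nerves reach fat cells: Adrb1, Adrb3, Adra1a, Adra2a, Rgs2, Pde3b, Prkar2b and Adcy3. They were chosen by symbol, as rows of the deposited count tables whose RefSeq accession maps to one of these genes. Of the 8, 7 had a row, 1 each, among 17334 rows in the 3 tables. Adcy3, an adenylyl cyclase, had no row in the tables used and was not analysed here. Adra2a had 136 counts over all 31 libraries and did not pass the filter on low counts in any fit, so 6 of the genes were tested.

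RNA-seq was carried out on interscapular brown fat (iBAT), inguinal white fat (iWAT) and epididymal white fat (eWAT) of male C57BL/6J mice aged 8 weeks. All mice were first kept at thermoneutrality for 8 days. They were then moved to 4 °C for 2 days (day 2) or 4 days (day 4), or killed without cold exposure (day 0). Days 0, 2 and 4 had 3, 4 and 3 iBAT libraries, 4, 3 and 5 iWAT libraries, and 3, 3 and 3 eWAT libraries. Dissected tissue was snap frozen, and the labels describe no mutation, transgene or drug. The labels number the libraries without saying that each came from a separate animal, so p-values measure the spread between these libraries, which may be technical in part.

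Noradrenaline released by sympathetic nerves binds beta-adrenergic receptors on adipocytes, which couple to the stimulatory G protein, raise cyclic AMP through adenylyl cyclases and activate protein kinase A. In brown fat this signal drives lipolysis, heat production and transcription of thermogenic genes, and in white fat it drives lipolysis. Alpha-2 receptors oppose it through the inhibitory G protein, alpha-1 receptors signal through the G protein of the Gq class to calcium, and phosphodiesterases end the signal by breaking cyclic AMP down.

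Total counts per library ran from 1.58 to 3.76 M in iBAT, 1.5 to 5.53 M in iWAT and 3.19 to 4.03 M in eWAT. Levels of single genes are given in CPM, counts scaled to a common library size after TMM adjustment. Summed levels of marker genes are also in CPM, but scaled by the total count of each library without TMM adjustment. A summed level and the level of a single gene are therefore not on exactly the same scale. The summed level of 8 brown adipocyte marker genes ran from 12270.3 to 39253 CPM in iBAT, from 517.7 to 10583 CPM in iWAT and from 51.8 to 433 CPM in eWAT, in the order the depot labels imply, and Zic1, a transcription factor gene of interscapular brown fat, had no counts in any white fat library. Other tissues were visible in some libraries. Skeletal muscle genes summed to between 3705 and 56402 CPM in iBAT, lymphocyte genes to between 1109.9 and 4851 CPM in iWAT, and epididymis and testis genes to between 128 and 39052 CPM in eWAT. Library iWAT555, labelled day 4, stood apart with 6097 CPM of epididymis and testis genes, against at most 927 CPM in the other iWAT libraries. In iBAT539 (day 2) and iBAT548 (day 4), only 159 and 57 rows had a count of 1, against 1014 to 1224 rows in the other iBAT libraries, so that a missing value there is not shown to be a count of 0. Results on the 6 genes tested were also computed without these libraries.

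At thermoneutrality the receptors Adrb1 and Adra1a, the G protein regulator Rgs2 and the protein kinase A subunit Prkar2b were each higher in brown fat than in inguinal and in epididymal fat, and Adrb3 was lower in iBAT and in iWAT than in eWAT. Pde3b passed in no depot comparison. Between iBAT and iWAT, 4 of the 6 genes tested passed an adjusted p of 0.05, all higher in iBAT, where 17.9% of all 11041 rows passed. Between iBAT and eWAT 5 of the 6 passed, 4 higher and 1 lower in iBAT, beside 10.3% of all rows. Between iWAT and eWAT 1 of the 6 passed, beside 7.82% of all rows. The median log2 difference of the 6 genes was 2.44, 2.07 and -0.37 in these 3 comparisons, against -0.18, -0.18 and -0.04 over all rows. In tissue pieces, fewer cells of a type and less RNA per cell cannot be told apart.

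Adrb1 encodes the beta-1 adrenergic receptor, which raises cyclic AMP (chromosome 19, 56722117 to 56725150, plus strand, GRCm38). At day 0 it had 79.5, 115 and 61.1 CPM in iBAT, 11.5, 12.9, 10.1 and 8.86 CPM in iWAT, and 10.4, 17.7 and 6.85 CPM in eWAT. Every iBAT library lay above every white fat library, and the white depots overlapped. The log2 difference was 2.97 (SE 0.54, adjusted p = 0.000325) between iBAT and iWAT and 2.87 (SE 0.60, adjusted p = 0.00221) between iBAT and eWAT. Adra1a encodes the alpha-1A adrenergic receptor (chromosome 14, 66635251 to 66771240, plus strand). It had 12.6, 18.2 and 14.5 CPM in iBAT, 2.81, 3.65, 1.19 and 2.07 CPM in iWAT, and 3.40, 2.13 and 2.69 CPM in eWAT, again with every iBAT library above every white fat library. Its log2 difference was 2.57 (SE 0.53, adjusted p = 0.00114) against iWAT and 2.45 (SE 0.58, adjusted p = 0.00668) against eWAT. Counts behind the white fat values of Adra1a were low, between 2 and 17 per library at day 0.

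Adrb3 encodes the beta-3 receptor, the main beta-adrenergic receptor of rodent adipocytes (chromosome 8, 27225776 to 27230845, minus strand). Its exons overlap the gene Gm45470 on the opposite strand, and the counting step's use of strand is not given in the sources used here, so reads of both cannot be told apart. At day 0 it had 155, 127 and 242 CPM in iBAT, 186, 407.5 (iWAT517), 112 and 208 CPM in iWAT, and 383, 697.5 and 1337 CPM in eWAT. All 3 eWAT libraries lay above all 3 iBAT libraries, whereas iWAT517 exceeded the lowest eWAT library and iBAT and iWAT overlapped. The log2 difference was -2.21 (SE 0.62, adjusted p = 0.0206) between iBAT and eWAT and -1.82 (SE 0.55, adjusted p = 0.0397) between iWAT and eWAT. Both calls depended on single libraries. The first was lost without iBAT516, iBAT517 or eWAT518, with log2 differences from -2.54 to -1.63 and adjusted p values up to 0.12 over the fits that left out 1 library. The second was lost without iWAT516, iWAT518, iWAT522, eWAT517 or eWAT518, with log2 differences from -2.25 to -1.24 and adjusted p values up to 0.212. The iWAT against eWAT call was also lost with only those 2 groups in the fit (adjusted p = 0.115). With the label number, which recurs across depots, as a term in the fit, this difference was -1.66 (adjusted p = 0.114). General adipocyte markers, 7 of 8 listed genes with a row (Adipoq and Lpl among them), summed to 15008 ± 3960 CPM in iBAT (SD, n = 3), 22770.2 ± 6019 CPM in iWAT (SD, n = 4) and 44823 ± 20778 CPM in eWAT (SD, n = 3) at day 0, and 1 of them, Pparg, was at 0 in all iWAT and eWAT libraries of that day. White adipocyte markers summed to 27.3 ± 5.2 CPM in iBAT, 185 ± 26.6 CPM in iWAT and 386 ± 154 CPM in eWAT. By library, eWAT518 was highest in general adipocyte markers (63104 CPM) as in Adrb3, and of the day 4 iWAT libraries iWAT548, iWAT551 and iWAT553 had 41383 to 47906 CPM of these markers, with 23180.3 CPM in iWAT550 and 10629 CPM in iWAT555. Their part in the Adrb3 values was not tested.

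**Figure D1:**
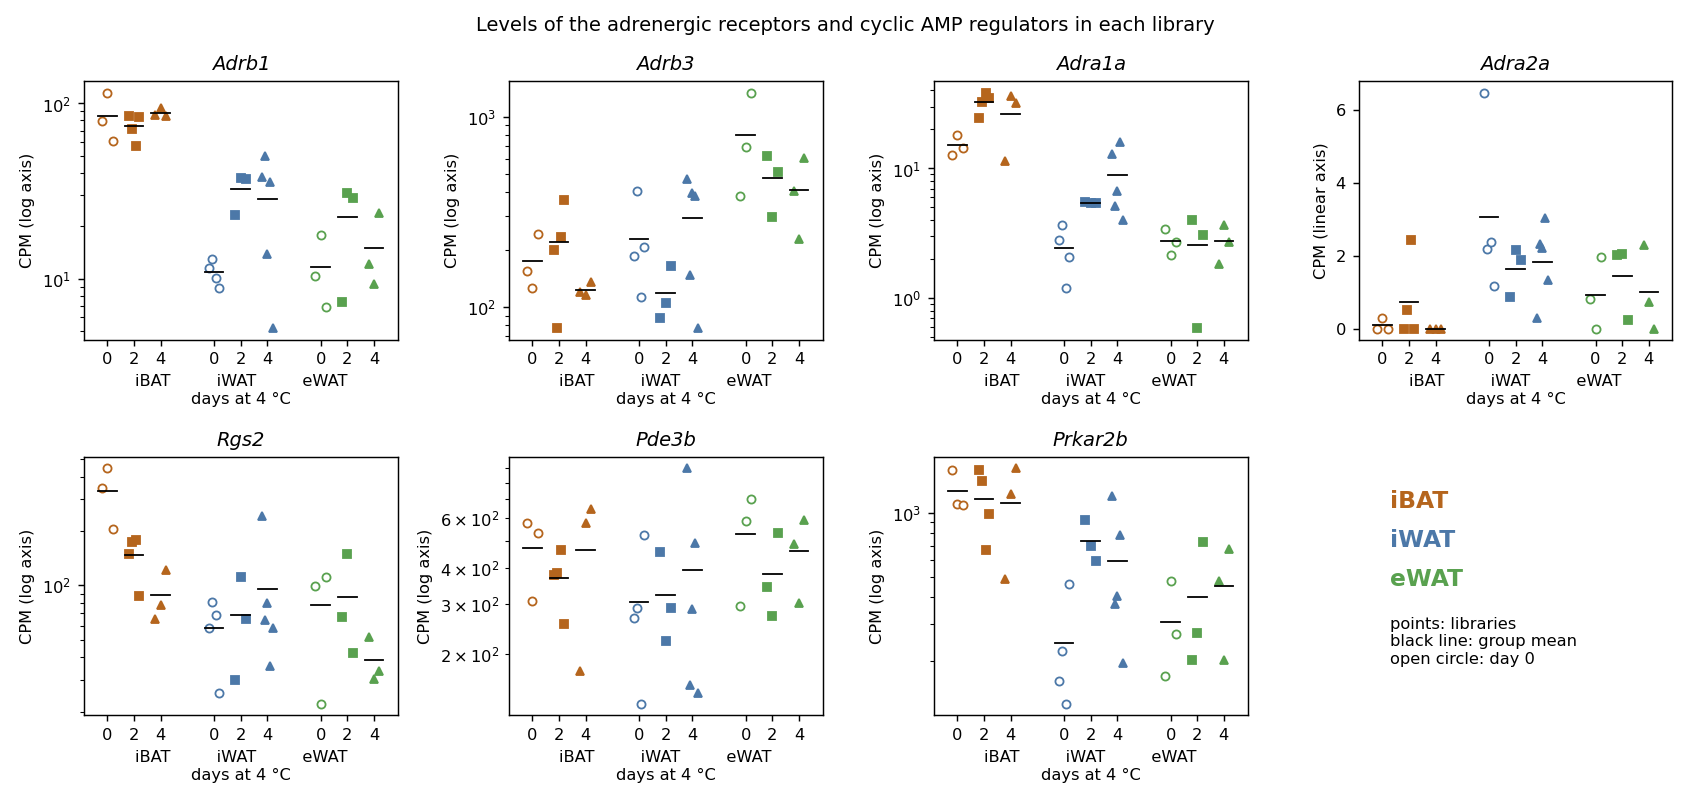
Level of each gene in CPM in every library (points), by depot and days at 4 °C, with the group mean as a black line; axes are logarithmic except for Adra2a, which had libraries at 0. Adrb1 and Adra1a lay above the white depots in iBAT at day 0, Adrb3 was highest in eWAT at day 0 (383 to 1337 CPM), and Rgs2 in iBAT had its highest values at day 0 (206 to 444 CPM).

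Rgs2 encodes a regulator of G protein signalling that speeds the switching-off of G proteins of the Gq class (chromosome 1, 143999338 to 144004149, minus strand). At day 0 it had 347, 444 and 206 CPM in iBAT, 58.5, 81.1, 68.2 and 25.4 CPM in iWAT, and 99.1, 22.2 and 112 CPM in eWAT. Every iBAT library was above every white fat library. This gave a log2 difference of 2.51 (SE 0.60, adjusted p = 0.00399) against iWAT and 2.10 (SE 0.65, adjusted p = 0.0374) against eWAT. The call against eWAT was lost without iBAT516, iBAT517, eWAT516 or eWAT517 (log2 difference 1.66 to 2.45, adjusted p up to 0.156 over the fits that left out 1 library), with library size alone as the scaling (1.64, adjusted p = 0.0928) and with only the 2 groups in the fit (2.07, adjusted p = 0.0579). With the label number as a term, the difference from eWAT was 2.15 (adjusted p = 0.058). Immediate early genes, whose transcripts appear quickly after a stimulus, summed to 1031 to 3342 CPM in iBAT, 544 to 952 CPM in iWAT and 604 to 1067 CPM in eWAT at day 0. The eWAT library with the highest sum, eWAT517 (1067 CPM), had the lowest Rgs2 of all libraries (22.2 CPM). The part of these genes in the Rgs2 difference was not tested.

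Prkar2b encodes the RII-beta regulatory subunit, which holds protein kinase A inactive until cyclic AMP binds and is the main regulatory subunit of fat (chromosome 12, 31958450 to 32061648, minus strand). At day 0 it had 1595, 1094 and 1086 CPM in iBAT, 161, 223, 126 and 459 CPM in iWAT, and 171, 475 and 268 CPM in eWAT, so that iBAT lay above both white depots without overlap. On the log2 scale iBAT was higher by 2.38 (SE 0.58, adjusted p = 0.00512) against iWAT and 2.05 (SE 0.64, adjusted p = 0.0377) against eWAT. The call against eWAT was lost without iBAT516, iBAT517, iBAT518, eWAT516 or eWAT518 (log2 difference 1.76 to 2.52, adjusted p up to 0.172) and with library size alone (1.63, adjusted p = 0.0757). With the label number as a term, the difference from eWAT was 2.14 (adjusted p = 0.0613). Pde3b encodes the phosphodiesterase through which insulin lowers cyclic AMP in adipocytes (chromosome 7, 114415222 to 114537938, plus strand). It had 576, 305 and 531.6 CPM in iBAT, 268, 291, 133.5 and 523 CPM in iWAT, and 294, 585 and 698 CPM in eWAT at day 0, and all 3 depots overlapped. No depot comparison of Pde3b on any day reached an unadjusted p of 0.05. Skeletal muscle genes in these iBAT libraries summed to 22490.2, 16766 and 56402 CPM (iBAT516, iBAT517 and iBAT518), against 41.5 to 3428 CPM in iWAT and 48.0 to 1438 CPM in eWAT, and their part in the depot differences was not tested. Epididymis and testis genes summed to 23164.5 CPM in eWAT516, against 128 CPM in eWAT517 and 2084 CPM in eWAT518. Their part in the day 0 differences from eWAT was not tested either.

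Adra2a encodes the alpha-2A receptor, which couples to the inhibitory G protein (chromosome 19, 54045259 to 54048982, plus strand). In iBAT it had 0, 1 and 0 counts at day 0, 0, 1, 5 and 0 counts at day 2, and no count in the 3 libraries of day 4. In iWAT it had counts in all 12 libraries, between 1 and 23, and in eWAT in 7 of 9, between 1 and 10. Averages at day 0 were 0.101 ± 0.175 CPM in iBAT (SD, n = 3), 3.05 ± 2.34 CPM in iWAT (SD, n = 4) and 0.919 ± 0.984 CPM in eWAT (SD, n = 3). A count of 0 allows up to 3 counts, or 1.84 and 1.40 CPM in iBAT550 and iBAT555. No limit is given for iBAT539 (day 2) and iBAT548 (day 4), where a missing value may not be a 0. The iWAT libraries of day 4 held 0.295 to 3.03 CPM. Depot differences in Adra2a were not tested.

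The promoters of Adrb1 and Rgs2, both above the white depots in iBAT at day 0, are shown because they hold the short form of the cyclic AMP response element. This sequence is bound by CREB-family factors, which protein kinase A activates. RefSeq promoters of GRCm38.p6, from 250 bases before to 50 bases after the start site, were available for 5 of the 8 genes, in 7 windows. Each is written 5′ to 3′ on the gene's strand, with capitals marking TGACG or its complement CGTCA. The Adrb1 window is chr19:56721867-56722166 on the plus strand, and the Rgs2 window is chr1:144004100-144004399 on the minus strand.
Adrb1: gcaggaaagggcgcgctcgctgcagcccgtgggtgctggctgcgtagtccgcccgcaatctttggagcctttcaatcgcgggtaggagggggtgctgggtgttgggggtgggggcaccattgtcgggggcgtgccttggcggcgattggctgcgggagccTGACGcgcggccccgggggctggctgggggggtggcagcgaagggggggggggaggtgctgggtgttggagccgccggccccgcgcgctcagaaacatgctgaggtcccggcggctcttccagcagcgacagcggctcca
Rgs2: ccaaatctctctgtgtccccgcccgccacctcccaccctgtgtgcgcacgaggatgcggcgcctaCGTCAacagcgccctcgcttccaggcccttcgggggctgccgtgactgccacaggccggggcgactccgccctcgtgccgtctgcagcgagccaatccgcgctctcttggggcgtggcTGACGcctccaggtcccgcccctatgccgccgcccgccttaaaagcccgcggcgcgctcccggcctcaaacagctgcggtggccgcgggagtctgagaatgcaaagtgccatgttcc
Adrb1 had 1 match, 85 bases before the start site, and Rgs2 had 2, at 62 and 180 bases before it. Adra2a also held a match, while the 2 windows each of Prkar2b and Adcy3 held none. Of all 32851 RefSeq promoter windows, 20.8% held TGACG on either strand. The full element TGACGTCA, which contains TGACG, was in 1.79% of all windows and in none of the 7, and AAGGTCA, the sequence bound by estrogen-related receptors, was in 4.72% and in none of the 7. A match describes the letters of the window only. Promoters of Adrb3, Adra1a and Pde3b were not used here.

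On cold days every iBAT library lay above every white fat library for Adrb1, and for Adra1a at day 2. At day 4 Adra1a in iBAT548 (11.4 CPM) lay below iWAT548 (13 CPM) and iWAT553 (15.9 CPM). At day 2, 1 of the 6 genes passed between iBAT and iWAT (15.6% of all rows), 2 between iBAT and eWAT (17.8%) and 1 between iWAT and eWAT (10.2%). At day 4, 2 passed between iBAT and iWAT (17.6%), 3 between iBAT and eWAT (18.1%) and 1 between iWAT and eWAT (9.94%). In iBAT Adra1a exceeded iWAT by 2.57 on the log2 scale (SE 0.55, adjusted p = 0.00173) at day 2 and 1.59 (SE 0.48, adjusted p = 0.0219) at day 4. Against eWAT it was higher by 3.64 (SE 0.59, adjusted p = 0.000129) and 3.25 (SE 0.60, adjusted p = 0.000546). With the label number as a term, neither difference from iWAT passed. They were 2.08 (adjusted p = 0.165) at day 2 and 1.95 (adjusted p = 0.0824) at day 4. The day 4 difference from iWAT was lost without iBAT550, iBAT555 or iWAT555 (without iWAT555, 1.39, adjusted p = 0.0592), with library size alone (1.19, adjusted p = 0.0596) and with only the 2 groups in the fit (1.61, adjusted p = 0.117). Between iWAT and eWAT at day 4 Adra1a was higher in iWAT by 1.66 (SE 0.54, adjusted p = 0.046). This call was lost without iWAT548, iWAT551, iWAT553 or any of eWAT548, eWAT551 and eWAT553 (adjusted p up to 0.172), with RLE scaling (1.61, adjusted p = 0.0501), with no filter (1.62, adjusted p = 0.0914) and with only the 2 groups in the fit (1.66, adjusted p = 0.133). With the label number as a term, the difference was 1.84 (adjusted p = 0.128).

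Adrb1 in iBAT exceeded that in eWAT by 1.73 on the log2 scale (SE 0.55, adjusted p = 0.0293) at day 2 and 2.55 (SE 0.59, adjusted p = 0.00395) at day 4. Against iWAT it was higher at day 4 by 1.62 (SE 0.49, adjusted p = 0.0218), and at day 2 the difference was 1.19 (SE 0.54, adjusted p = 0.141). The iBAT values at day 2 were 85.1, 71.7, 56.8 and 83.6 CPM, against 23.0, 37.7 and 37.1 CPM in iWAT and 7.31, 30.9 and 29.0 CPM in eWAT, with every iBAT library above every white fat library. The values of iBAT at day 4 were 85.4, 93.7 and 85.0 CPM, against 38.0, 50.2, 13.9, 35.6 and 5.23 CPM in iWAT and 12.1, 9.26 and 23.7 CPM in eWAT, again without overlap. The day 2 call against eWAT was lost without iBAT532, iBAT539 or eWAT532 (adjusted p up to 0.142), with library size alone (1.26, adjusted p = 0.0665) and with only the 2 groups in the fit (1.78, adjusted p = 0.0635). Epididymis and testis genes summed to 39052 CPM in eWAT532, against 2474 CPM in eWAT538 and 597 CPM in eWAT539. Their part in the day 2 eWAT values was not tested. The day 4 call against iWAT was lost without iBAT550 or iWAT551 (adjusted p up to 0.0553) and with only the 2 groups in the fit (1.69, adjusted p = 0.103). Without iWAT555 it was 1.35 (adjusted p = 0.0402).

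The mean of Adrb3 was highest in eWAT on both cold days, and 2 of its 4 differences from eWAT passed. Every eWAT library had 228 CPM or more on every day, and the lowest values of all were 77.9 CPM in iBAT534, 87.3 CPM in iWAT532 and 77.7 CPM in iWAT555. At day 2 the iWAT level minus the eWAT level was -2 on the log2 scale (SE 0.61, adjusted p = 0.0354), with 87.3, 105 and 165 CPM in iWAT, against 624, 298 and 509.9 CPM in eWAT and no overlap. At day 4 the iBAT level minus the eWAT level was -1.75 on the log2 scale (SE 0.61, adjusted p = 0.0455), with 120.2, 115 and 135 CPM in iBAT, against 408, 228 and 607 CPM in eWAT and no overlap. The other 2 did not pass and their libraries overlapped. They were -1.13 (SE 0.55, adjusted p = 0.157) for iBAT against eWAT at day 2, where iBAT539 (364 CPM) lay above eWAT538 (298 CPM), and -0.49 (SE 0.52, adjusted p = 0.608) for iWAT against eWAT at day 4. With library size alone the iBAT difference at day 2 passed (-1.63, adjusted p = 0.0324). The day 2 call was lost without iWAT532, iWAT538, iWAT539, eWAT532 or eWAT539 (adjusted p up to 0.131). With the label number as a term, this difference was -2.01 (adjusted p = 0.0513). The day 4 call was lost without iBAT548, iBAT550, iBAT555, eWAT548 or eWAT553 (adjusted p up to 0.16), without iBAT539 and iBAT548 together (-1.66, adjusted p = 0.134), with no filter (-1.73, adjusted p = 0.0627) and with only the 2 groups in the fit (-1.69, adjusted p = 0.0592). With the label number as a term, the day 4 difference was -0.64 (adjusted p = 0.623). Adrb3 in iBAT and iWAT differed at day 4 by -1.25 (SE 0.56, adjusted p = 0.115), and past the threshold with library size alone (-1.60, adjusted p = 0.0428), a scaling that moved the median of all rows by -0.41 there. Prkar2b in iBAT and eWAT differed by 1.54 (SE 0.60, adjusted p = 0.0745) at day 2 and 1.30 (SE 0.62, adjusted p = 0.146) at day 4. The day 2 difference passed with DESeq2 (1.51, adjusted p = 0.034), with the library score as a covariate (1.57, adjusted p = 0.0125) and without eWAT539 (2.30, adjusted p = 0.026), and over all settings its adjusted p ran up to 0.247. The day 4 difference passed with the library score (1.34, adjusted p = 0.0377), and its adjusted p ran up to 0.396.

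**Figure D2:**
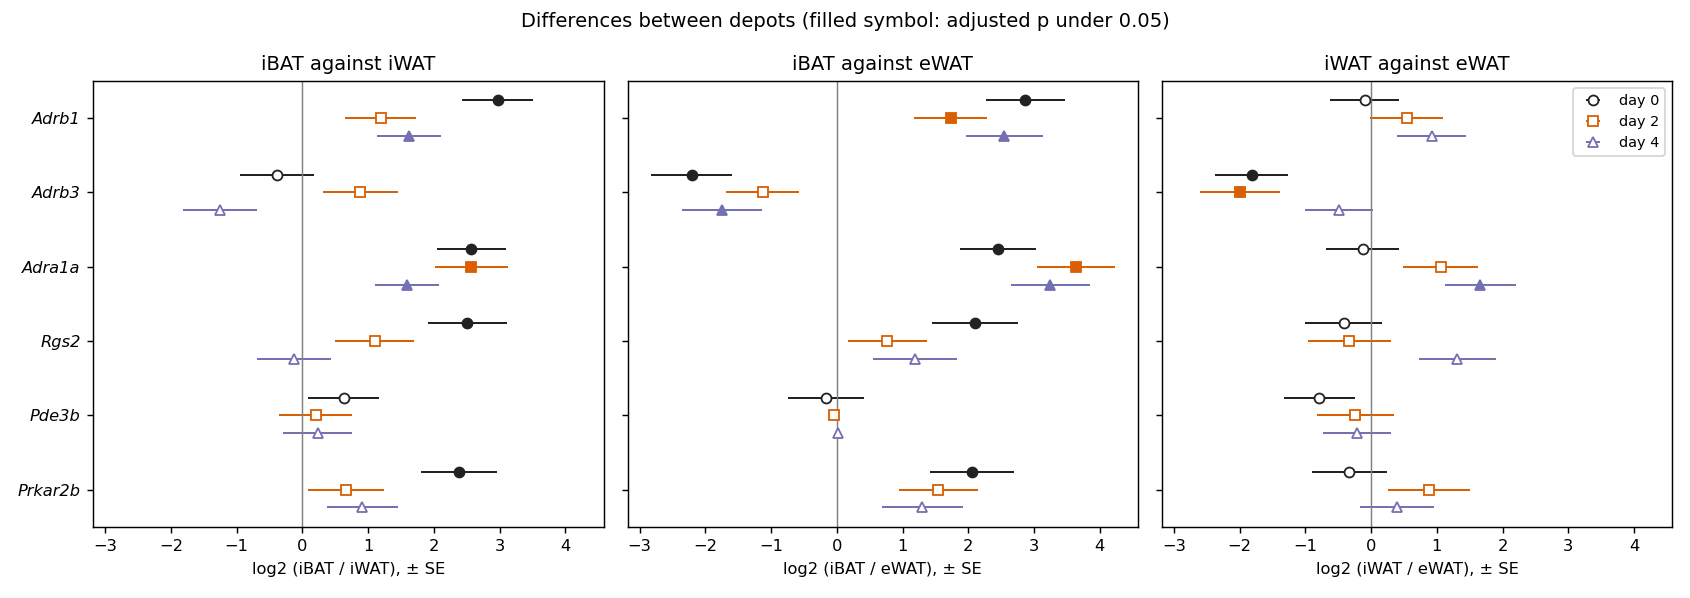
Log2 difference between depots on days 0, 2 and 4 for the 6 genes tested, with SE bars (none where the difference was within 0.05 of 0); filled symbols have an adjusted p under 0.05. Adrb1 and Adra1a lay right of 0 in iBAT against both white depots, Adrb3 lay left of 0 against eWAT, and no Pde3b symbol was filled.

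Of the 6 genes, 0 passed the threshold for a change with cold in any depot by edgeR's quasi-likelihood test. In iBAT 0.157% of 8270 rows passed at day 2 and 0% at day 4. In iWAT 0% of 9574 rows and in eWAT 0% of 10043 rows passed on either day, and day 4 against day 2 also gave 0% in each depot. An unadjusted p under 0.05 against day 0 was reached by 2 of the 6 genes in iBAT at day 2 (12.4% of all rows) and 1 at day 4 (7.03%). In iWAT it was reached by 2 at day 2 (10.7%) and 3 at day 4 (8.28%), and in eWAT by 0 at day 2 (1.06%) and 0 at day 4 (2.76%). DESeq2 called 1, Rgs2 in iBAT at day 4, beside 1.09% of the rows it tested there.

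In brown fat Rgs2 had 347, 444 and 206 CPM at day 0, 150, 173, 177 and 87.0 CPM at day 2, and 65.5, 77.8 and 121 CPM at day 4. Every cold library lay below every day 0 library. The log2 difference was -1.11 (SE 0.37, adjusted p = 0.253) at day 2 and -1.83 (SE 0.41, adjusted p = 0.248) at day 4. DESeq2 gave -1.84 at day 4 with an adjusted p of 0.00275, against 0.248 by edgeR and up to 0.781 when 1 library was left out, so the call depended on the tool. Summed immediate early genes were 2087 ± 1168 CPM at day 0 (SD, n = 3), 477 ± 204 CPM at day 2 (SD, n = 4) and 366 ± 95.5 CPM at day 4 (SD, n = 3). Over the day 0 libraries both were highest in iBAT517 and lowest in iBAT518, while at day 2 iBAT535 had the highest Rgs2 (177 CPM) with the lowest immediate early sum (318 CPM). Skeletal muscle genes summed to 31886 ± 21423, 7992 ± 1461 and 12435 ± 8298 CPM on the same days. Their part in the Rgs2 values was not tested.

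**Figure D3:**
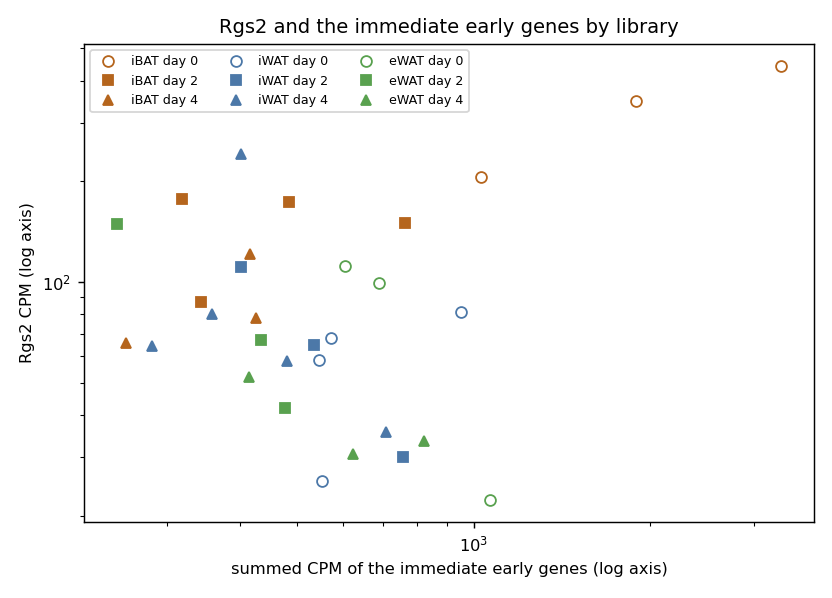
Rgs2 level (CPM after TMM adjustment) against the summed level of immediate early genes (CPM without it) in each library, on log axes. Colours show the depot, with open circles for day 0, squares for day 2 and triangles for day 4. The 3 day 0 iBAT libraries lay at the upper right, with 206 to 444 CPM of Rgs2 and 1031 to 3342 CPM of immediate early genes.

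Adra1a in iBAT had 12.6, 18.2 and 14.5 CPM at day 0, 24.5, 32.7, 38.4 and 34.7 CPM at day 2, and 11.4 (iBAT548), 36.1 and 31.8 CPM at day 4. All day 2 libraries lay above all day 0 libraries, and edgeR gave 1.19 on the log2 scale (SE 0.43, adjusted p = 0.292), and at day 4 iBAT548 lay below the day 0 range while the other 2 libraries lay above it. Adrb1 averaged 85.2 ± 27.5 CPM at day 0 (SD, n = 3), 74.3 ± 13.1 CPM at day 2 (SD, n = 4) and 88.0 ± 4.9 CPM at day 4 (SD, n = 3). Adrb3 averaged 174 ± 60.0, 218.5 ± 118 and 124 ± 10.6 CPM on the same days. Prkar2b averaged 1258 ± 292, 1163 ± 418.5 and 1109.5 ± 574 CPM, and Pde3b 471 ± 145, 370.2 ± 86.0 and 465 ± 255 CPM. For Adrb1, Adrb3, Prkar2b and Pde3b the cold and day 0 libraries of iBAT overlapped. At day 2, 2 of the 6 genes (Adra1a and Rgs2) had no overlap with day 0, beside 15.7% of all rows, and at day 4 it was 1 of the 6 (Rgs2), beside 19.1% of all rows.

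In inguinal fat the values of Adrb1 and Prkar2b were higher on cold days without passing the adjusted threshold. Adrb1 had 11.5, 12.9, 10.1 and 8.86 CPM at day 0, 23.0, 37.7 and 37.1 CPM at day 2, and 38.0, 50.2, 13.9, 35.6 and 5.23 (iWAT555) CPM at day 4. All day 2 libraries exceeded all day 0 libraries, as did all day 4 libraries except iWAT555. The log2 difference was 1.56 (SE 0.58, adjusted p = 0.41) at day 2 and 1.39 (SE 0.53, adjusted p = 0.516) at day 4, or 1.66 (SE 0.40, adjusted p = 0.117, in a range up to 0.999 over the other libraries left out) without iWAT555. Prkar2b had 161, 223, 126 and 459 (iWAT522) CPM at day 0, 921, 694 and 595 CPM at day 2, and 1193, 369.9, 407, 781 and 195 (iWAT555) CPM at day 4. The day 2 libraries again lay above all of day 0, and day 4 overlapped it. It differed from day 0 by 1.57 on the log2 scale (SE 0.59, adjusted p = 0.415) at day 2 and 1.27 (SE 0.53, adjusted p = 0.566) at day 4.

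Adra1a in iWAT had 2.81, 3.65, 1.19 and 2.07 CPM at day 0, 5.53, 5.42 and 5.40 CPM at day 2, and 13, 5.11, 6.65, 15.9 and 4.02 CPM at day 4. Both cold groups lay above day 0 without overlap, and the log2 difference at day 4 was 1.79 (SE 0.51, adjusted p = 0.474). Adrb3 had 87.3, 105 and 165 CPM at day 2 and 469, 147, 399, 382 and 77.7 (iWAT555) CPM at day 4, with overlap. Its log2 difference for day 4 against day 2 was 1.33 (SE 0.59, adjusted p = 0.779). This was the only difference between the cold days with an unadjusted p under 0.05, which 5.23% of all rows reached in iWAT. At day 2, 3 of the 6 genes (Adrb1, Adra1a and Prkar2b) had no overlap with day 0, beside 12.0% of all rows, and at day 4 1 of the 6 (Adra1a), beside 1.99% of all rows. Brown adipocyte markers summed to 1274 ± 602 CPM at day 0 (SD, n = 4), 8455 ± 2846 CPM at day 2 (SD, n = 3) and 6668 ± 3895 CPM at day 4 (SD, n = 5), with 1356 CPM in iWAT555. Keratin and mammary epithelium genes summed to 254 to 13655 CPM at day 0, 239.5 to 2162 CPM at day 2 and 99.3 to 3675 CPM at day 4. The part of either in the values of Adrb1, Prkar2b and Adra1a was not tested. Rgs2 averaged 58.3 ± 23.8, 68.5 ± 40.6 and 95.9 ± 82.8 CPM on days 0, 2 and 4, where iWAT548 alone had 241 CPM, and Pde3b 304 ± 162, 322.5 ± 120.5 and 395 ± 313 CPM, with overlap throughout.

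In epididymal fat none of the 6 genes reached an unadjusted p of 0.05 against day 0 and none was free of overlap, beside 4.79% of all rows at day 2 and 9.03% at day 4. Adrb3 had 383, 697.5 and 1337 CPM at day 0, 624, 298 and 509.9 CPM at day 2, and 408, 228 and 607 CPM at day 4. The highest value, in eWAT518, was a day 0 library, and the lowest day 0 library lay within the range of both cold groups. Adrb1 averaged 11.6 ± 5.52, 22.4 ± 13.1 and 15 ± 7.62 CPM (SD, n = 3 each) on days 0, 2 and 4, and Adra1a 2.74 ± 0.637, 2.56 ± 1.78 and 2.73 ± 0.911 CPM. Rgs2 averaged 77.8 ± 48.6, 86.1 ± 56.0 and 38.6 ± 11.5 CPM. Prkar2b averaged 305 ± 155, 399.6 ± 284 and 451 ± 237 CPM, and Pde3b 526 ± 209, 382 ± 135 and 459.6 ± 148 CPM. The spread between libraries of 1 group was wide here, as in the other depots. The common coefficient of variation between libraries by edgeR was 0.583 in eWAT, 0.55 in iBAT and 0.538 in iWAT. Epididymis and testis genes ranged from 128 to 39052 CPM over the eWAT libraries.

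**Figure D4:**
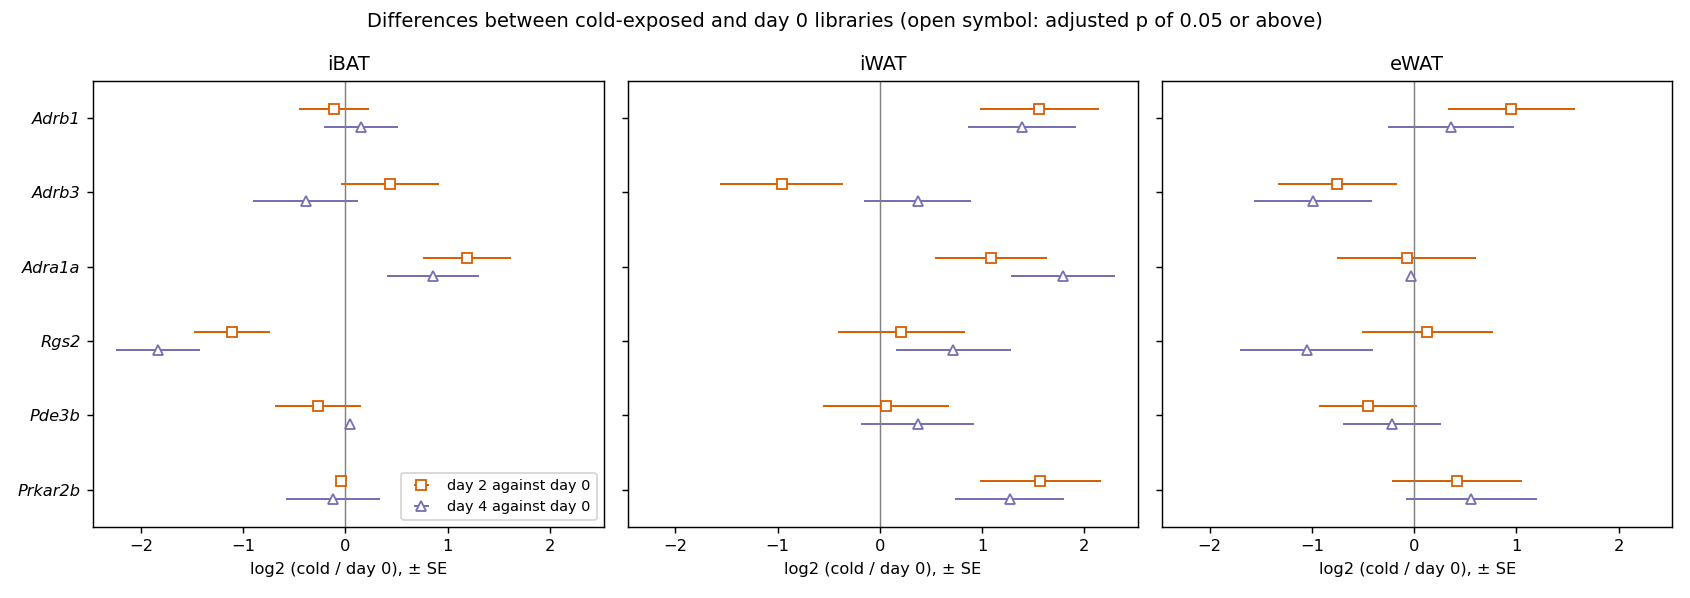
Log2 difference of day 2 and day 4 libraries from day 0 in each depot for the 6 genes tested, with SE bars (none where it was within 0.05 of 0); every symbol is open because no adjusted p was under 0.05. Rgs2 lay left of 0 in iBAT (-1.11 and -1.83), and Adrb1 and Prkar2b lay right of 0 in iWAT.

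Whether the cold response differed between depots was tested as the difference of the 2 changes. Of the 6 genes, 0 passed in any of the 6 comparisons, beside 0% of 11041 rows in each. The share of all rows with an unadjusted p under 0.05 was 10.4% for iBAT minus iWAT at day 2. It was 5.76% for iBAT minus iWAT and 4.06% for iWAT minus eWAT at day 4. At an unadjusted p under 0.05, the day 2 change in iBAT minus that in iWAT was -1.78 (SE 0.74, adjusted p = 0.461) for Adrb1 and -1.72 (SE 0.81, adjusted p = 0.471) for Prkar2b. The day 4 change of Rgs2 in iBAT minus that in iWAT was -2.64 (SE 0.83, adjusted p = 0.691). The day 4 change in iWAT minus that in eWAT was 1.73 (SE 0.82, adjusted p = 1) for Rgs2 and 1.79 (SE 0.76, adjusted p = 1) for Adra1a. Without iWAT548, which held 241 CPM of Rgs2, the Rgs2 value was 1.04 (SE 0.73). A depot-specific cold response of these genes was therefore not detected with these libraries, which does not show that there was none.

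Levels per kb of transcript allow the receptors to be set beside each other. Values are given for 8 adrenergic receptor genes. Adrb3 had the highest mean CPM per kb of these in every group, between 42.6 ± 14.6 (iWAT, day 2) and 288 ± 174 (eWAT, day 0). Adrb1 was next in every group, between 25.2 ± 4.44 and 29.8 ± 1.66 CPM per kb in iBAT, between 3.67 ± 0.595 and 11.0 ± 2.82 in iWAT and between 3.95 ± 1.87 and 7.58 ± 4.43 in eWAT. By means, Adrb3 over Adrb1 was thus 62.4 against 28.9 CPM per kb in iBAT, 81.7 against 3.67 in iWAT and 288 against 3.95 in eWAT at day 0. Adra1a followed in iBAT at days 2 and 4, at 7.87 ± 1.42 and 6.39 ± 3.19 CPM per kb. Adra1b, Adra2a, Adra2b and Adra2c were below 1 CPM per kb in every iBAT and iWAT group. The alpha-2C receptor Adra2c reached 3.08 ± 4.69 CPM per kb in eWAT at day 4, where 1 library, eWAT551, held 120 counts and the other 2 held 8 and 3. Epididymis and testis genes summed to 11918 CPM in eWAT551, against 1898 CPM in eWAT548 and 1093 CPM in eWAT553. Their part in the Adra2c value was not tested.

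**Figure D5:**
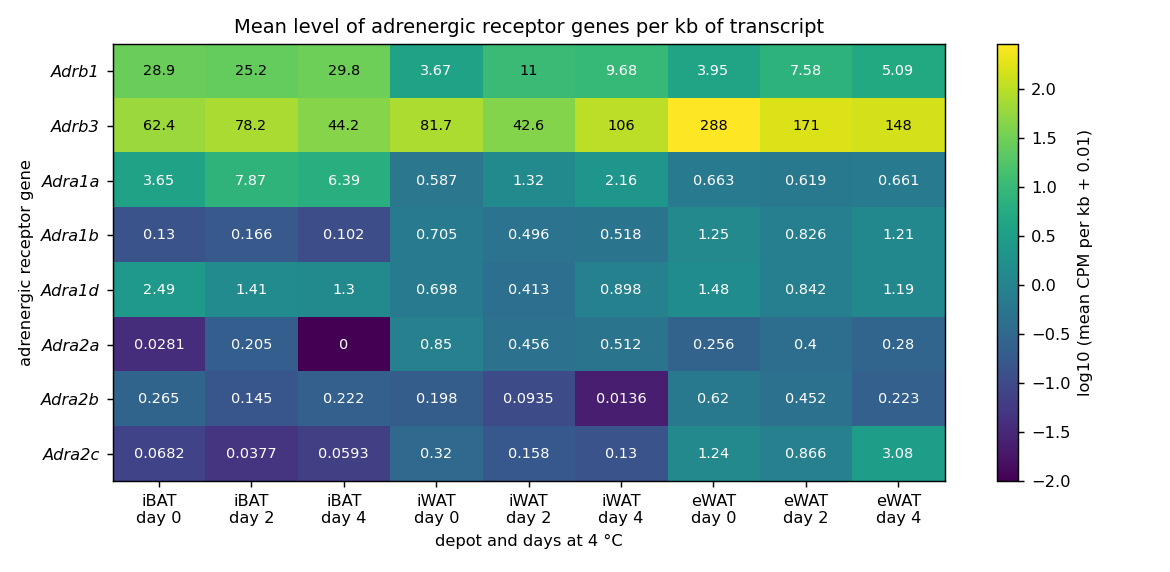
Mean level of 8 adrenergic receptor genes in each depot and day, as CPM per kb of transcript, printed in each cell and shaded by log10. Adrb3 and Adrb1 led in every group, and Adra1a in iBAT was 3.65 CPM per kb at day 0, 7.87 at day 2 and 6.39 at day 4.

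Downstream of the receptors, lists of pathway genes that were chosen with earlier results of these data known gave the following counts. Of 14 tested subunits, inhibitors and anchors of protein kinase A, 4 were higher in iBAT than in iWAT at day 0 and 2 higher than in eWAT, with 0 lower, where 17.9% and 10.3% of all rows passed in either direction. They were Pkia, an inhibitor of the catalytic subunit (log2 difference 4.29, SE 0.48, and 3.75, SE 0.53), Prkar2b in both, and, against iWAT, the catalytic subunit Prkaca (1.84, SE 0.43) and the anchor Akap6 (3.35, SE 0.88; named after its value was seen). The same shares of all rows stand beside the next counts. Of 7 tested adenylyl cyclases, 2 were higher in iBAT than in iWAT at day 0, Adcy9 (2.71, SE 0.57) and Adcy2 (3.98, SE 0.84), and both were also higher than in eWAT (2.26, SE 0.62, and 3.69, SE 0.90), while Adcy8, listed at 0 in all iBAT libraries of day 0, was lower than in eWAT. Of 7 tested phosphodiesterases, Pde4d was higher in iBAT than in iWAT (3.10, SE 0.43) and than in eWAT (3.96, SE 0.49), while Pde1b was lower in iBAT than in iWAT (-2.44, SE 0.35). Skeletal muscle genes, given above for the same libraries, were far more abundant in iBAT, and their part in the values of Pkia, Akap6 and Adcy2 was not tested.

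Of 9 tested genes known to be induced by cyclic AMP, Rgs2 among them, 7 were higher in iBAT than in iWAT at day 0, beside 17.9% of all rows called, and the same number higher than in eWAT, beside 10.3%, with 0 lower. Their median log2 difference was 3.10 against iWAT and 3.96 against eWAT, beside -0.18 over all rows in both. The nuclear receptor gene Nr4a1 differed by 4.56 (SE 0.54) and 4.72 (SE 0.61), and Ucp1, which uncouples brown fat mitochondria, by 5.14 (SE 1.05) and 9.86 (SE 1.46). In the cold, 1 of the 9 changed in iBAT at day 2 by edgeR's test. Dio2, also a brown adipocyte marker like Ucp1 and the deiodinase that activates thyroid hormone, rose to 422.5 ± 120 CPM (SD, n = 4), against 40.8 ± 29.0 CPM at day 0 (SD, n = 3; log2 difference 3.44, SE 0.55, adjusted p = 0.0389). At day 2 Rgs2 (-1.11) and Nr4a1 (-2.75, SE 0.52, adjusted p = 0.0721) had the opposite sign to Dio2. Immediate early genes summed to 2087 ± 1168 CPM in iBAT, 654.5 ± 199 CPM in iWAT and 787 ± 246.5 CPM in eWAT at day 0 (SD). In iBAT at day 2 they summed to 477 ± 204 CPM, and their part in the Nr4a1 values was not tested.

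Over the 9 group means of log2 CPM, Adrb1 followed Prkar2b with r = 0.96 and Adra1a with r = 0.93, and Adrb3 ran against Adrb1 with r = -0.69. These describe only 9 group means. Both genes of a pair were measured in the same libraries, and depots dominate the means. The rows whose group means were most like each gene's were Mrps21 (r = 0.992), Acat1 (0.991) and Apool (0.99) for Adrb1, and Acadm (0.997), Fastk (0.993) and Micos13 (0.992) for Adra1a. For Prkar2b they were Ndufab1 (0.979), Isca1 (0.977) and Atp23 (0.973), for Adrb3 Spon1 (0.979), Psg25 (0.974) and Dll1 (0.97). For Rgs2 they were Tiprl (0.964), Naca (0.955) and Carnmt1 (0.947), and for Pde3b Dmwd (0.969), Acadsb (0.962) and Svil (0.94). Within groups, over the deviations of the 31 libraries, the same pairs gave lower values, such as 0.659 for Adra1a with Acadm, 0.784 for Prkar2b with Ndufab1 and -0.229 for Adrb3 with Dll1.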

How the data were processed

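The authors deposited 3 tables of raw counts per RefSeq accession, 1 per depot. The tools listed in the submitters' processing notes are cutadapt and BWA (no version), with mm10 as the build; counting, annotation release and strand use are not given in the sources used here. Per the labels, libraries were made from 1 µg of total RNA for Illumina sequencing. Missing values were read as counts of 0. Of 17334 accessions, 17026 took a symbol from RefSeq (GRCm38.p6) and 109 from GENCODE M21.

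Testing used edgeR 4.0.16 under R 4.3.3: filterByExpr (minimum count 10, minimum total 15), TMM scaling, robust quasi-likelihood F-tests, and Benjamini-Hochberg adjustment over all rows of a comparison with a threshold of 0.05. Days were compared in 1 fit per depot, and depots and differences in change in 1 fit of 31 libraries (11041 rows). SE is the absolute log2 difference divided by the square root of F. The fits were also run on simulated counts, with an outcome that is not given here. Alternatives were DESeq2 1.42.0, no filter, RLE factors, library size alone, rows summed by symbol, a library score or label number as a term, only the compared groups, and leaving out libraries. No molecular identifiers are described, so floors cover counting error only.

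Members and lists were chosen with earlier results of these data known. Named genes were the members, per list and comparison up to 3 genes past the threshold (otherwise the most abundant, given only where a result turned on it), and the 3 rows most like each tested member. Akap6 and Adra2c were named after their values were seen.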

Additional observations from a re-analysis of the deposited data

Results flagged for a closer look

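Rgs2 in iWAT at day 4 had 1 library far from the others. It had 241 CPM in iWAT548, against 35.6 to 80.4 CPM in the other libraries of that group. Such checks were made only in groups of 4 or more libraries, which were iBAT at day 2 and iWAT at days 0 and 4. No eWAT group was checked. Of 21 such group checks of the 7 genes with a row, 1 was met. Chance alone meets about 1 in 20 if values are normally distributed, which was not tested for CPM. iWAT548 did not stand out in immediate early genes (401 CPM, within the 283 to 708 CPM of its group). No Rgs2 comparison that includes this group passed the adjusted threshold.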

How the results depend on the processing

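Of 40 member differences with an unadjusted p under 0.05, 0 of 690 refits had the other sign, and of 104 other differences 136 of 1806 refits did, 89 of them on leaving out 1 library. The 40 were picked by their p in the main fit, and the refits reuse its libraries. A change of sign was therefore unlikely in advance, and the 0 is not separate evidence. For cold changes and differences in change, the count of genes called was 0 in every fit that left out 1 library (range 0 to 0 in all 15 comparisons), and DESeq2 gave 1 in iBAT at day 4 (Rgs2). For depots, leaving out 1 library gave 4 to 4 (iBAT against iWAT), 2 to 4 (iBAT against eWAT) and 0 to 1 (iWAT against eWAT) at day 0, 1 to 1, 1 to 3 and 0 to 1 at day 2, and 0 to 2, 2 to 3 and 0 to 1 at day 4. Library size alone gave 3 of 6 for iBAT against eWAT at day 0. With only the 2 groups compared, iWAT against eWAT at day 0 gave 0, iBAT against iWAT at day 2 gave 2, iBAT against eWAT at day 2 gave 1, and both iBAT against iWAT and iWAT against eWAT at day 4 gave 0. RLE factors and no filter each gave 0 for iWAT against eWAT at day 4.

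Label numbers recur across depots of 1 day, and 7 of 23 same-numbered pairs deviated together with r over 0.1 (range -0.555 to 0.422). With so few libraries per group, these correlations cannot show whether a shared number means a shared animal. The label number as a replicate block gave 3 for iBAT against eWAT at day 0, 0 for iWAT against eWAT on days 0, 2 and 4, 0 for iBAT against iWAT at day 2 and 1 at day 4. Under it Adra1a in iBAT against iWAT at day 2 was 2.08 (adjusted p = 0.165), or 2.47 (0.0816) with the library score. Adrb3 in iBAT against eWAT at day 4 was -0.64 (adjusted p = 0.623), or -0.62 (0.569) with the score, against -1.75 without the block. The replicate block with the library score gave 0 for iWAT against eWAT on days 0 and 4, and Prkar2b in iBAT against eWAT at day 4 was 1.99 (adjusted p = 0.0339). Within a depot no number recurs between days, so no paired analysis of days was possible. Depth limited Adra2a, with 136 counts in all, and the cause of the differences between settings was not tested.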

Other observations

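Of 5 tested receptor kinases and arrestins, 2, Grk2 and Arrb2, were lower in iBAT than in iWAT at day 0, beside 17.9% of all rows called, and the same 2 were higher in iWAT than in eWAT, beside 7.82%. The other 3 had positive values for iBAT against iWAT without passing, and the median of the 5 was 0.56 there and 1.14 for iWAT against eWAT. Grk2, a kinase that phosphorylates active receptors, averaged 65.3 ± 11.3 CPM in iBAT (SD, n = 3), 176 ± 31.4 CPM in iWAT (SD, n = 4) and 52.8 ± 11.1 CPM in eWAT (SD, n = 3). Arrb2, an arrestin that uncouples phosphorylated receptors, averaged 16.8 ± 3.52 CPM in iBAT, 107 ± 26.2 CPM in iWAT and 27.4 ± 4.63 CPM in eWAT. Log2 differences between iBAT and iWAT were -1.43 for Grk2 (SE 0.30, adjusted p = 0.00118) and -2.68 for Arrb2 (SE 0.37, adjusted p = 1.32e-05), and those between iWAT and eWAT were 1.74 for Grk2 (SE 0.30, adjusted p = 0.000401) and 1.97 for Arrb2 (SE 0.35, adjusted p = 0.000542). Summed lymphocyte genes were 24.2 ± 4.6 CPM in iBAT, 3885 ± 884 CPM in iWAT and 51.5 ± 25.6 CPM in eWAT at day 0, and their part in the values of Grk2 and Arrb2 was not tested.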
